A study of Mus musculus with 88 samples.

Results

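The libraries described here came from cloned mouse embryos that received Obox3 mRNA. They are 4 of the 88 samples of the series, and every gene of their table was compared, without a choice among genes. Cloning was by nuclear transfer from a somatic cell (SCNT): the nucleus of a cumulus cell, a somatic cell that surrounds the egg, was placed in an enucleated mature (MII) oocyte. All were wild-type, of strain BDF1, grown in KSOM medium and collected as late 2-cell embryos (L2C). The group SCNT_Obox3_L2C (2 libraries) had been injected with 10 ng/µl of Obox3 mRNA. The control group SCNT_EGFP_L2C (2 libraries) had been injected with the same concentration of mRNA for EGFP, a fluorescent protein. Late 2-cell embryos made by sperm injection (ICSI_L2C, BDF1 x BDF1, wild-type, 2 libraries) served as the fertilised reference. The labels name no mRNA injection for these embryos. They do not say how many embryos went into a library, nor whether replicates were separate collections, so the p-values reflect the spread among these libraries alone, which may be technical.

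In the mouse, the embryo's own genome is switched on in a minor wave in the zygote and a major wave in the 2-cell embryo, while the messages stored in the oocyte are degraded. Obox genes encode homeodomain transcription factors of oocytes and early embryos, and they lie in a cluster with many pseudogene copies on chromosome 7. Homeodomains related to those of Crx and Otx, as the Obox ones are, bind DNA with the core letters TAATCC. After nuclear transfer, the somatic genome has to be set back to embryonic activity, and many clones fail to activate part of the genes that fertilised embryos transcribe at the 2-cell stage. The comparison asks what added Obox3 does to the RNA of such embryos.

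The promoters of 3 genes whose RNA rose are shown here, because they hold or lack the TAATCC letters. Each runs from 250 bases before to 50 bases after the gene's start in RefSeq (build GRCm38.p6), 5′ to 3′ on the gene's strand, with TAATCC or its reverse complement GGATTA in capitals. Pramel4 (chr4:144058875-144059174, plus strand) holds 1 match, 88 bases before the start. Spic (chr10:88682974-88683273, minus strand) and H2-Q6 (chr17:35424600-35424899, plus strand) hold none.
Pramel4: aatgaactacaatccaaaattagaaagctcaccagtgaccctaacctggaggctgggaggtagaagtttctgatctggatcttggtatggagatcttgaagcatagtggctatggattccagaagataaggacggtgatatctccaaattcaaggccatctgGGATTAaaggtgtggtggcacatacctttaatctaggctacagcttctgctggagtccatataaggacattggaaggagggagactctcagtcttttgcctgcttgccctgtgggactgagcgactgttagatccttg
Spic: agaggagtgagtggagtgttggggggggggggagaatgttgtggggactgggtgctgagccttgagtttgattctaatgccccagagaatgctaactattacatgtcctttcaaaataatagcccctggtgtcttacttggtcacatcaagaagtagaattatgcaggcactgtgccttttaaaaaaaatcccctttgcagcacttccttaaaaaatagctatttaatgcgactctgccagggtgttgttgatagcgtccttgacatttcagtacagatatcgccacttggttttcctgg
H2-Q6: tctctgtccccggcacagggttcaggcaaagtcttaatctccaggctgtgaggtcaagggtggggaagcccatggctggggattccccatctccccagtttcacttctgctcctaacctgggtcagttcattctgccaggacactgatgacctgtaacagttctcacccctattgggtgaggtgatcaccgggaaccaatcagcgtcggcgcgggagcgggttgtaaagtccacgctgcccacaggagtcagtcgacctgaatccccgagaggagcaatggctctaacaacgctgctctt

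With Obox3 mRNA, 20 of 18252 genes tested rose and 8 fell against EGFP mRNA. These are 0.11% and 0.0438% of the genes tested, or 0.153% for the 28 together. After the libraries were rescaled by the median ratio of their genes, 257 rose and 31 fell (1.41% and 0.17% of 18255 genes), among them all 28. Among the genes that rose were the transcription factors Spic, Foxi3 and Foxr1, the growth factor Fgf4, the MHC class I gene H2-Q6, and from the Obox family Obox8 and the pseudogene Obox3-ps4. The transcriptional repressor Hes1 was the 1 protein-coding gene that fell. A gene was called when limma's adjusted p (Benjamini-Hochberg, over all genes tested) was under 0.05 and its log2 fold change at least 1 in size. Levels are TPM (transcript abundance, reads scaled for gene length and library size) and fold changes are differences of mean log2(TPM + 1). For all 28 genes the libraries of both groups did not overlap. Their adjusted p by limma ran from 0.0341 to 0.04997, so all of them lay near the threshold. Without any 1 of 4 libraries (ICSI_L2C replicate 1, SCNT_EGFP_L2C replicate 1, or either SCNT_Obox3_L2C library) no gene was called, although 1999 to 3298 genes then had an unadjusted p under 0.05.

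**Figure D1:**
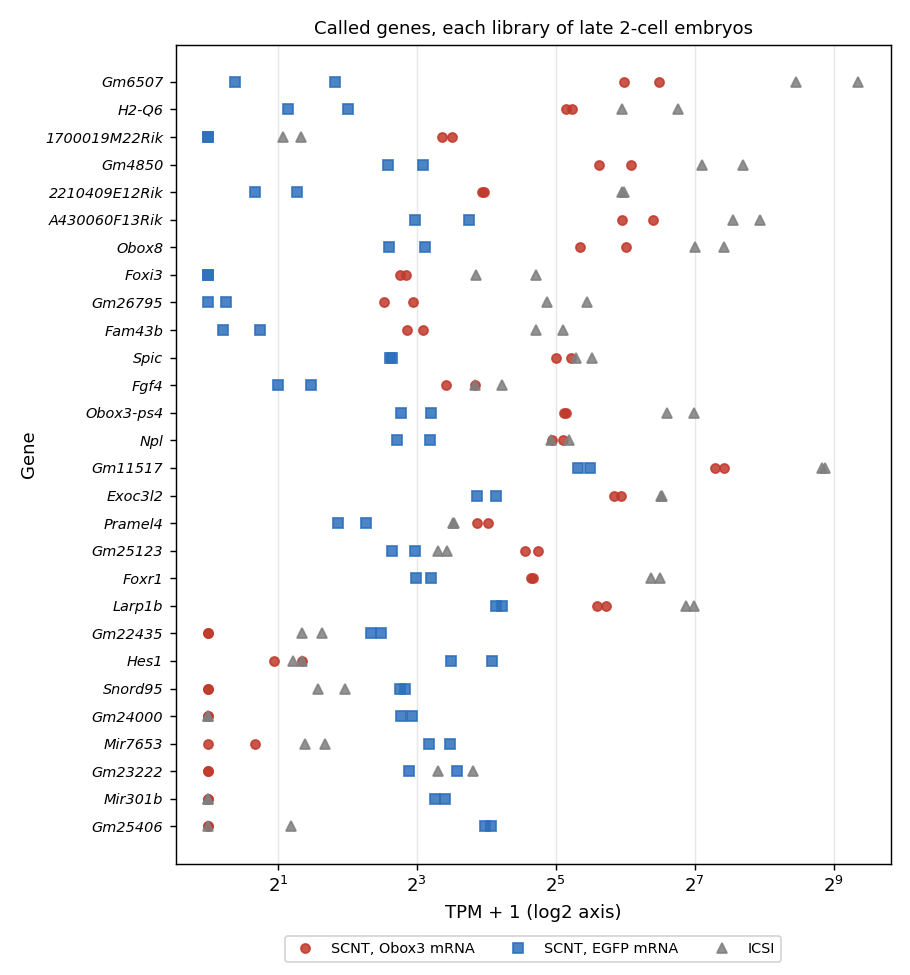
Level of the 28 called genes in each library of late 2-cell embryos. The horizontal axis is TPM + 1 on a log2 scale, and each symbol is 1 library (circles SCNT with Obox3 mRNA, squares SCNT with EGFP mRNA, triangles ICSI). For every gene the circles lie apart from the squares, and for the 20 genes that rose the triangles lie above both squares. Genes picked for low EGFP values lean that way.

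Spic, an Ets-family transcription factor, was at 36.4 and 31.2 TPM with Obox3 mRNA and at 5.09 and 5.24 TPM with EGFP mRNA. The log2 fold change was 2.49 (SE 0.18, n = 2 per group, limma adjusted p = 0.0341). The ICSI embryos had 38.03 and 45.1 TPM. In TPM without rescaling, both injected libraries with Obox3 thus stood clear of the EGFP libraries and just under the fertilised ones. The difference between Obox3 and ICSI embryos was not called (log2 fold change -0.29, limma adjusted p = 0.325). Foxi3, a forkhead factor, was listed at 0 in both EGFP libraries, at 6.16 and 5.79 TPM with Obox3 mRNA, and at 13.4 and 25.3 TPM in ICSI embryos. Foxr1, another forkhead gene, had 24.0 and 24.5 TPM against 6.96 and 8.24 TPM, a log2 fold change of 1.56 (SE 0.17, limma adjusted p = 0.0456). Its ICSI levels of 89.2 and 81.9 TPM were far above both cloned groups.

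Fgf4 encodes a secreted growth factor that later supports the first lineage decisions of the blastocyst. It was at 13.3 and 9.71 TPM with Obox3 mRNA and at 1.00 and 1.78 TPM with EGFP mRNA (log2 fold change 2.39, SE 0.27, limma adjusted p = 0.04997). The ICSI libraries, at 13.3 and 17.8 TPM, overlapped the Obox3 ones. H2-Q6, a nonclassical MHC class I gene (chr17:35424850-35430055 in GRCm38.p6), had 34.3 and 36.6 TPM against 3.04 and 1.22 TPM, which is a log2 fold change of 3.61 (SE 0.37, limma adjusted p = 0.0456) and the largest among protein-coding genes present in both groups. MHC class I genes are near copies of each other, and how reads that fit several genes were counted is not given in the sources used here.

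Larp1b, which encodes an RNA-binding protein of the La-related family, also rose. Its levels were 52.1 and 47.3 TPM with Obox3 mRNA, 17.8 and 16.7 TPM with EGFP mRNA, and 117 and 125 TPM after ICSI (log2 fold change 1.47, SE 0.16, limma adjusted p = 0.0456). Exoc3l2, related to a subunit of the exocyst that tethers secretory vesicles, had 56.2 and 60.4 TPM against 13.6 and 16.6 TPM (1.89, SE 0.17). Npl, the lyase that breaks down sialic acid, had 33.6 and 29.8 TPM against 5.59 and 8.16 TPM (2.07, SE 0.22), and its ICSI levels of 29.5 and 35.4 TPM enclosed those of the Obox3 embryos. Pramel4, a member of the large Prame-like family that is active in early embryos, had 15.3 and 13.6 TPM against 2.66 and 3.81 TPM (1.88, SE 0.21). Its ICSI libraries, at 10.6 and 10.5 TPM, lay below both Obox3 libraries. Fam43b completed the 10 protein-coding genes that rose, with 6.26 and 7.51 TPM against 0.680 and 0.161 TPM (2.49, SE 0.27).

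The other genes that rose were non-coding, pseudogenes, or without a RefSeq entry under their symbol. Gm6507 was at 88.2 and 62.3 TPM against 2.54 and 0.300 TPM, a log2 fold change of 5.13 (SE 0.53, limma adjusted p = 0.0462), and at 652 and 351 TPM in ICSI embryos. Gm11517, a transcribed pseudogene, was the most abundant, with 170.0 and 155.0 TPM against 39.1 and 43.8 TPM (1.95, SE 0.16, limma adjusted p = 0.037). The long transcript A430060F13Rik had 60.8 and 83.8 TPM against 6.85 and 12.4 TPM (2.82, SE 0.31). The pseudogene 1700019M22Rik was listed at 0 in both EGFP libraries and stood at 10.3 and 9.30 TPM with Obox3 mRNA, above the 1.52 and 1.12 TPM of ICSI embryos. Gm4850, 2210409E12Rik, Gm26795 and Gm25123 also rose, by log2 fold changes of 3.02, 2.98, 2.61 and 1.84. Of these non-coding genes, Gm11517, A430060F13Rik and the last 3 named were picked for mention after their values were seen.

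Among the Obox genes, Obox8 rose: its levels were 63.2 and 39.7 TPM with Obox3 mRNA, 5.06 and 7.71 TPM with EGFP mRNA and 127 and 170.0 TPM after ICSI (log2 fold change 2.82, SE 0.30, limma adjusted p = 0.0456). Obox6 was at 136 and 129.7 TPM against 48.1 and 78.6 TPM, without passing the test (1.10, SE 0.24, limma adjusted p = 0.107). Obox1, Obox2, Obox5 and Obox7 had log2 fold changes from -0.22 to 0.00, and their injected groups overlapped. In all, 1 of the 7 Obox genes tested was called higher, where 0.11% of all genes tested were. Obox3, Obox6 and Obox8 (42.9% of the 7, against 4.16% of all genes tested) were higher by 1 or more without overlap. This share counts Obox3, whose mRNA was injected, so its higher level is part of the design. The family's median log2 fold change was 0.00 beside -0.03 for all genes tested. Crxos, a homeobox gene of the same chromosome that is related to Crx, had 67.0 and 80.2 TPM against 16.7 and 24.5 TPM and did not pass the test (1.81, SE 0.22, limma adjusted p = 0.0576). It passed after the rescaling.

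The injected message itself was hardly seen under its own name. Obox3 was at 6.74 and 5.02 TPM in the injected embryos and at 0.470 and 3.22 TPM with EGFP mRNA (log2 fold change 1.45, SE 0.48, limma adjusted p = 0.198). Both are far under the 78.7 and 64.6 TPM of ICSI embryos. Obox3-ps5, a pseudogene copy, showed the larger difference, with 56.8 and 62.4 TPM against 1.19 and 6.87 TPM (3.87, SE 0.55, limma adjusted p = 0.0718). In mouse embryonic stem (ES) cells transfected with an Obox3 plasmid, Obox3 itself reached 1.75 and 1.59 TPM while Obox3-ps5 reached 451 and 263 TPM, and both were listed at 0 with the empty plasmid. In those cells Obox3-ps5 thus held most of the TPM gained over Obox3 and its copies. In the cloned embryos, reads from the injected mRNA and reads from the embryo's own copies cannot be told apart. Among the other copies, Obox3-ps4 rose, at 33.7 and 34.6 TPM against 5.82 and 8.22 TPM (2.15, SE 0.22, limma adjusted p = 0.0456). The uncalled copies Obox3-ps1, Obox3-ps2, Obox3-ps3, Obox3-ps6 and Obox3-ps7 had log2 fold changes of 1.74, 2.90, 1.04, 2.47 and 0.10. Obox3-ps8, a copy on chromosome 17, was under 1 TPM in every library and was not tested.

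**Figure D2:**
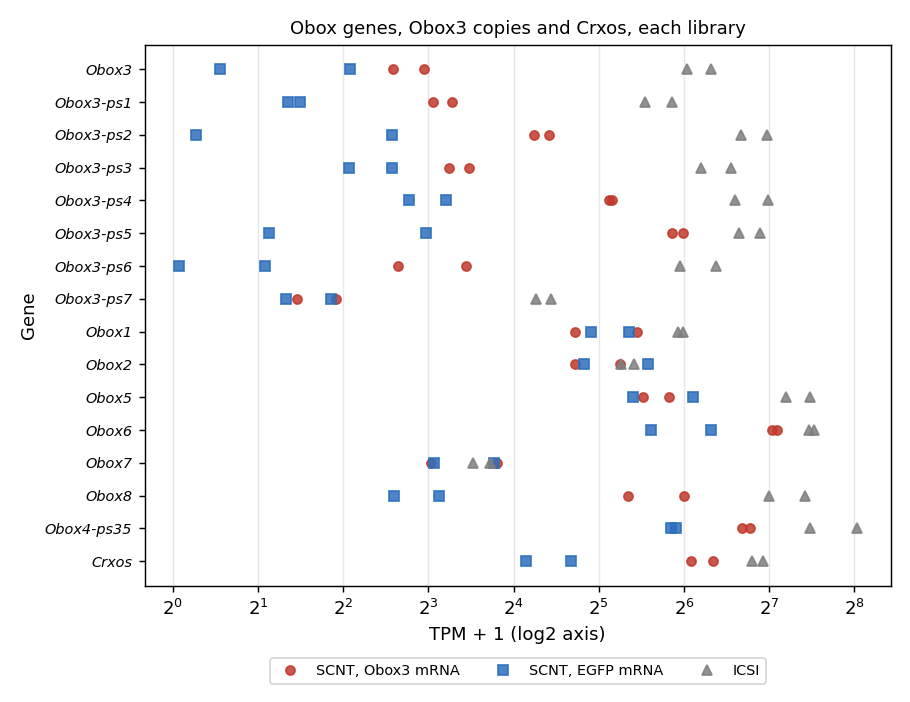
Level of Obox3, the 7 pseudogene copies of it that were tested, the other Obox genes, Obox4-ps35 and Crxos in each library. The horizontal axis is TPM + 1 on a log2 scale, and each symbol is 1 library, with shapes as in the plot of called genes. The Obox3 gene lies low in both injected groups, while Obox3-ps5 is at 56.8 and 62.4 TPM with Obox3 mRNA.

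Of the genes that fell, Hes1 was the 1 that encodes a protein, a repressor downstream of Notch signalling (chr16:30065357-30067796 in GRCm38.p6). It had 1.55 and 0.933 TPM with Obox3 mRNA, 15.9 and 10.3 TPM with EGFP mRNA, and 1.32 and 1.55 TPM after ICSI (log2 fold change -2.64, SE 0.29, limma adjusted p = 0.0462). The EGFP clones thus stood apart, while the Obox3 and ICSI libraries overlapped. The other 7 genes were not protein-coding in RefSeq or had no entry there under their symbol: Gm25406, Mir301b, Gm23222, Mir7653, Gm24000, Snord95 and Gm22435, of which Mir7653, Gm24000, Snord95 and Gm22435 were picked for mention after their values were seen. Gm25406 was at 14.8 and 15.8 TPM with EGFP mRNA and Mir301b at 9.61 and 8.57 TPM, and both were listed at 0 in the 2 Obox3 libraries.

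TPM keep no sequencing depth, but the commonest step in TPM times length among short genes can be read as 1 read. By that step, the EGFP libraries held 3.98 and 4 reads of Snord95, 8.96 and 8.5 of Mir301b, 5.97 and 5 of Mir7653, and 14.9 and 17 of Gm25406. These decreases rest on few reads. A microRNA acts through its seed, bases 2 to 8, printed in capitals in the mature forms that RefSeq lists for the called microRNA genes. The 3 seeds differ. Libraries of this kind are not built to capture the mature forms, so the values belong to the gene regions only.
mmu-miR-301b-5p: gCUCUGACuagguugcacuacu
mmu-miR-7653-5p: uAAGGGGCggacagacagacgg
mmu-miR-7653-3p: cCCCUACUguuccaccccgccu

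The ICSI embryos place these levels on the scale of fertilised embryos. The comparison of ICSI with EGFP embryos shares the EGFP libraries, so its values stand beside the others and are no separate evidence. For 20 of the 20 genes that rose, both ICSI libraries were above both EGFP libraries. Genes picked for low EGFP values lean that way, and the share over all genes tested is not given here. For 15 of the 20 genes both ICSI libraries were also above both Obox3 libraries, and for 3 (1700019M22Rik, Gm25123 and Pramel4) both were below. For these counts too, the shares over all genes tested are not given. Directly between Obox3 and ICSI embryos, limma called 12 of the 20 lower in the clones, 2 higher (1700019M22Rik and Gm25123) and 6 in neither direction. Over all genes, that comparison called 511 higher (2.8%) and 1152 lower (6.31%) in the Obox3 clones, and ICSI against EGFP called 2287 higher (12.5%) and 877 lower (4.8%). Both comparisons with ICSI used TPM without rescaling. The median-ratio factors were 0.907 and 0.964 for the Obox3 libraries, 0.908 and 1.01 for EGFP, and 1.06 and 1.18 for ICSI. Dividing by these factors lowers the ICSI levels beside those of the clones.

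Genes of the 2-cell stage were the list with the highest median. None of the 55 tested members was called in either direction, with 28 higher and 0 lower at an unadjusted p under 0.05. Of all 18252 genes tested, 2127 were higher and 1167 lower at that p. For 22 of the 55 members (40%) the Obox3 libraries lay above the EGFP libraries with a log2 fold change of at least 1, and for 0 below. Over all genes tested, 4.16% lay above and 2.79% below in this way. The list's median log2 fold change was 0.75 beside -0.03 for all genes tested. Summed over the list, the Obox3 libraries held 1732 and 1821 TPM, the EGFP libraries 754 and 1079 TPM, and the ICSI libraries 3624 and 2944 TPM. The groups did not overlap in this sum, and the Obox3 clones lay between the others.

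Within that list, Tcstv3, a gene of the Tcstv family of the same stage, had 20.8 and 48.8 TPM against 4.92 and 5.31 TPM (log2 fold change 2.43, SE 0.41, limma adjusted p = 0.0864). Zscan4d, of the zinc-finger family that marks the 2-cell state, had 5.47 and 5.38 TPM against 0.319 and 0.689 TPM, far under the 65.5 and 28.0 TPM of ICSI embryos (2.11, SE 0.39, limma adjusted p = 0.0895). Trim43a had 79.5 and 89.7 TPM against 30.9 and 52.1 TPM, and its ICSI levels of 89.5 and 79.2 TPM were in the range of the Obox3 clones. Zfp352, a retrogene of the same stage, had 71.1 and 114 TPM against 61.0 and 85.9 TPM, with overlapping groups. Duxf3, which encodes the activator Dux, was under 1 TPM in all 4 cloned libraries. After rescaling, 11 members passed, where 1.41% of all genes were called higher. The 11 included Usp17lb, Pramel7, Ubtfl1 and Trim43b, named after their values were seen. Usp17lb, a deubiquitinase gene, had 230.4 and 188 TPM against 50.9 and 75.0 TPM.

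**Figure D3:**
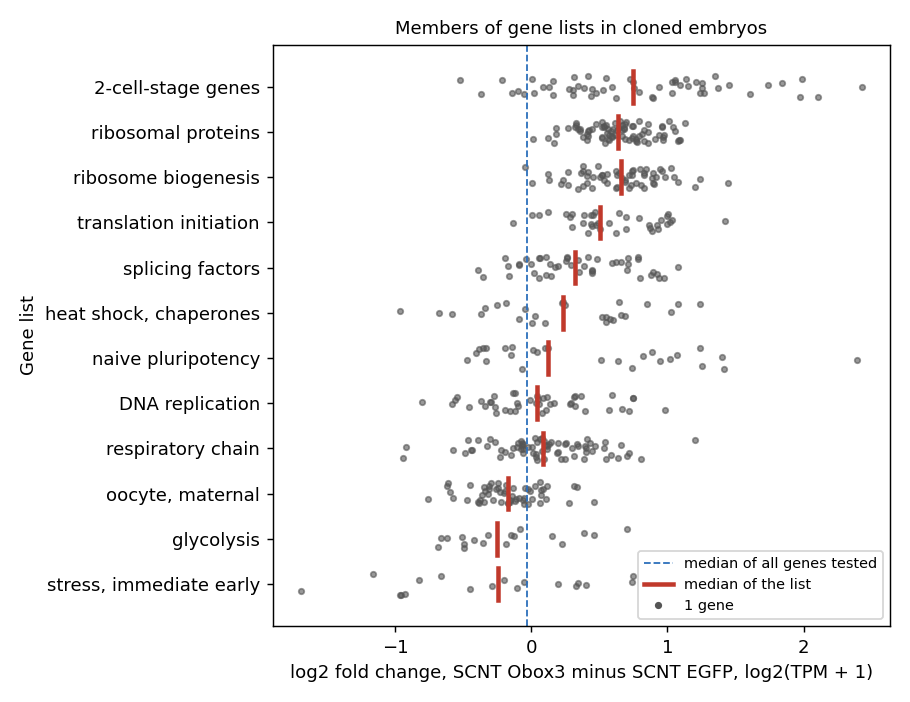
Log2 fold change in cloned embryos, Obox3 minus EGFP mRNA on the log2(TPM + 1) scale, for the tested members of 12 of the 34 gene lists. Each dot is 1 gene, the red bar is the list's median and the dashed line is the median of all genes tested (-0.03). The bar of the 2-cell-stage genes is at 0.75 and that of the ribosomal proteins at 0.64, while that of the oocyte genes is at -0.17.

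Genes for making proteins lay above the rest by smaller and more even amounts. All 80 cytosolic ribosomal protein genes had a log2 fold change above 0, with a median of 0.64 and a highest value of 1.13. None was called, and 7 were called higher after rescaling, where 1.41% of all genes were. At an unadjusted p under 0.05, 60 were higher, against 2127 of all 18252 genes tested. These 80 genes summed to 5934 and 6168 TPM with Obox3 mRNA, 3458 and 4111 with EGFP mRNA, and 7588 and 8219 after ICSI. Ribosome biogenesis genes, which assemble ribosomes in the nucleolus, showed the same picture, with 59 of 60 above 0 and a median of 0.66. Translation initiation factors were above 0 in 36 of 37, with a median of 0.51, and splicing factors in 37 of 46, with a median of 0.32. Again 0 were called in each of these lists, with 43, 21 and 17 higher and 0 lower at an unadjusted p under 0.05. After rescaling, 3, 5 and 1 of them were called higher. The shares not overlapping and higher by 1 or more were 10%, 10.8% and 2.17%, and 8.75% for ribosomal proteins. Of all genes tested, 4.16% were. The share was 7.04% among genes between 20 and 100 TPM and 8.58% above 100 TPM. The part of gene level in the shares of these lists was not tested.

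Heat shock and chaperone genes had a median of 0.23, with 3 of 27 (11.1%, against 4.16% of all genes tested) not overlapping and higher by 1 or more. These 3, which were called after rescaling, were Hspa8, Hsp90ab1 and Dnajb9, named after their values were seen. Hsp90ab1, a constitutive cytosolic chaperone, had 866 and 782 TPM against 376 and 402 TPM (log2 fold change 1.08, limma adjusted p = 0.0718). Stress and immediate early genes had a median of -0.24, with 0 of 18 not overlapping and higher and 2 lower (11.1%, against 2.79% of all genes tested). The lower ones were Hmox1 and Gadd45g, also named after their values were seen. Gadd45g, a growth arrest gene, had 7.10 and 9.29 TPM against 33.3 and 24.4 TPM, and 2.41 and 1.01 TPM after ICSI (-1.69, limma adjusted p = 0.0895).

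In the naive pluripotency list, Fgf4 was the 1 of 27 tested members that was called. Over all genes tested 0.153% were called. After rescaling, 5 members were called higher, where 1.41% of all genes were. For 7 members (25.9%, against 4.16% of all genes tested) the Obox3 libraries were above by 1 or more without overlap, and for 0 below (against 2.79%). Pou5f1, the central factor of the network, had 49.3 and 46.5 TPM against 54.1 and 55.5 TPM (-0.19, limma adjusted p = 0.559). Sox2 was under 1 TPM in the clones, and Nanog did not reach 1 TPM in enough libraries to be tested. Klf17, a factor of the same stage, had 271 and 299 TPM against 158 and 210.0 TPM, and Dppa3, a maternal protein that protects maternal DNA methylation, had 1122 and 1109 TPM against 537 and 741 TPM. Neither passed the test (limma adjusted p = 0.167 and 0.129). Among the first lineage factors 0 of 11 were called. In that list 3 members (27.3%, against 4.16% of all genes tested) were higher by 1 or more without overlap, and these were also the 3 called after rescaling: Tead4, Tfap2c and Hand1, named after their values were seen. Tead4, a trophectoderm factor, had 13.3 and 12.4 TPM against 3.74 and 3.56 TPM (1.57, limma adjusted p = 0.0638).

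Of 56 oocyte genes 0 were called and 0 differed by 1 or more without overlap, and their log2 fold changes ran from -0.76 to 0.46 with a median of -0.17. Zp3, which encodes a zona pellucida protein, had 15.1 and 18.9 TPM against 16.98 and 11.2 TPM, with overlapping groups. Gdf9, an oocyte growth factor, had 56.7 and 65.1 TPM against 74.6 and 77.5 TPM (-0.32, limma adjusted p = 0.347). Btg4, an adaptor for the decay of maternal mRNA, had 225 and 232 TPM against 172 and 259.9 TPM. Among 23 decay factors 0 were called, while 2 (8.7%) were higher and 1 (4.35%) lower by 1 or more without overlap. Over all genes tested, 4.16% were higher and 2.79% lower in this way. After rescaling 2 decay factors were called higher, where 1.41% of all genes were.

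Chromatin genes linked to the reprogramming of clones also gave 0 calls. The lists of H3K9 methylation (18 tested), Polycomb (21), DNA methylation (16) and histone acetylation (20) had medians of 0.30, 0.09, -0.10 and 0.16. Of all these members only 1, in the acetylation list, differed by 1 or more without overlap. Over all genes tested, 4.16% were higher and 2.79% lower in this way. Kdm4d, a demethylase of H3K9, had 1.10 and 2.10 TPM against 0.977 and 1.23 TPM. Xist, the RNA that coats the inactive X chromosome, had 4.38 and 1.74 TPM with Obox3 mRNA and 1.80 and 11.1 TPM with EGFP mRNA, so the groups overlapped. The ICSI libraries held 0.0789 and 0.121 TPM. Across the 34 lists, 32 had 0 members called, with the Obox and naive pluripotency lists as the exceptions. After rescaling, 16 lists had at least 1 member called higher and none had one called lower. The smaller lists not described singly had medians from -0.66 (genes imprinted by H3K27me3, 12 tested) to 0.41 (activators and repressors of Dux, 25 tested), leaving aside the marker lists of other cell types.

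Markers of other cell types were near absent. Of 20 markers of cumulus and granulosa cells, the donor type, 15 were under 1 TPM in every cloned library and 2 were at 0. Their summed level was 21.7 to 22.2 TPM with Obox3 mRNA, 12.7 to 16.3 TPM with EGFP mRNA and 25.2 to 29.9 TPM after ICSI, and in the clones Amhr2 gave most of it. Fibroblast, sperm and blood markers summed to at most 4.98 TPM in any of the 6 libraries. The label of late 2-cell embryos fitted the markers: genes of the 2-cell stage and oocyte messages were both abundant in all of them.

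The libraries differed in composition beyond single genes. The 10 most abundant genes took 67.9 to 68% of the TPM with Obox3 mRNA, 69.3 to 72.6% with EGFP mRNA and 57.4 to 60.1% after ICSI. Between 15604 and 16450 genes reached 1 TPM per library, and by the step of short genes, 1 TPM of a 1-kb gene stood for 5.06 to 13.9 reads. The median log2 fold change rose with the level of the gene, from -0.12 under 5 TPM (9325 genes) to 0.01 between 5 and 20 TPM (5192), 0.16 between 20 and 100 TPM (3152) and 0.17 above (583). In the same ranges the share higher by 1 or more without overlap was 2.86%, 4.24%, 7.04% and 8.58%. The share lower in this way was 4.54%, 1.37%, 0.508% and 0%. The part of these trends in the medians and shares of the lists was not tested. When the 100 most abundant genes were left out, the median of all genes moved from -0.03 to -0.20. The medians of the 2-cell list (0.71), the ribosomal proteins (0.51) and ribosome biogenesis (0.50) stayed above 0, and that of the Obox family went to -0.15.

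The same factor was also expressed in male mouse ES cells (hybrid C57BL/6 / 129, transfected with plasmids), in a table with 2 libraries each for the empty plasmid (ES_Empty) and for Obox3 (ES_Obox3). The tables share no sample and were normalised separately, so they were tested apart. In ES cells 951 of 20355 genes were higher (4.67%) and 2770 lower (13.6%). Of the 15 genes that rose in clones and were tested in ES cells, 9 were called higher there too, which is 60% of the 15 and 1.08% of the 834 ES cell calls tested in embryos. The 9 were Npl, Larp1b, Exoc3l2, H2-Q6, Obox8, Obox3-ps4, Gm25123, A430060F13Rik and Gm11517. Obox3-ps4 is a copy of the introduced gene, and its reads cannot be told apart from those of the introduced Obox3 RNA. Gm11517 went from 1.39 and 6.89 TPM to 178 and 132 TPM, and Exoc3l2 from 0.334 and 0.0511 TPM to 11.2 and 8.97 TPM. Hes1 was the 1 gene lower in both, at 2.30 and 1.33 TPM against 12.3 and 8.26 TPM in ES cells.

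Seen from the ES cell side, the embryo values leaned the same way. The 834 genes called higher in ES cells had a median log2 fold change of 0.44 in clones, and 614 of them (73.6%) were above 0. In clones 149 (17.9%) were higher by 1 or more without overlap and 13 (1.56%) lower. The 1951 genes called lower in ES cells had a median of -0.21, with 532 (27.3%) above 0, and 27 (1.38%) higher and 65 (3.33%) lower without overlap. Over all 14770 genes tested in both tables the median was 0.00, 49.6% were above 0, and 4.28% and 2.58% were higher and lower without overlap. By list, 25 of 49 genes of the 2-cell stage tested in ES cells were called higher there and 0 lower, and of 27 naive pluripotency genes 4 were called higher and 14 lower. Dppa3 (5.97), Klf17 (5.46), Gata4 (3.82) and Trim43a (6.34) had high log2 fold changes in ES cells, from 3.31 TPM or less with the empty plasmid. In clones they had 0.82, 0.64, 0.64 and 1.05, and the EGFP embryos held 30.9 to 741 TPM of them. Other stage genes, Zscan4d (0.14), Zfp352 (0.60), Tcstv3 (0.85) and Duxf3 (0.90), were not called in ES cells. In clones these had 2.11, 0.31, 2.43 and 0.08.

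**Figure D4:**
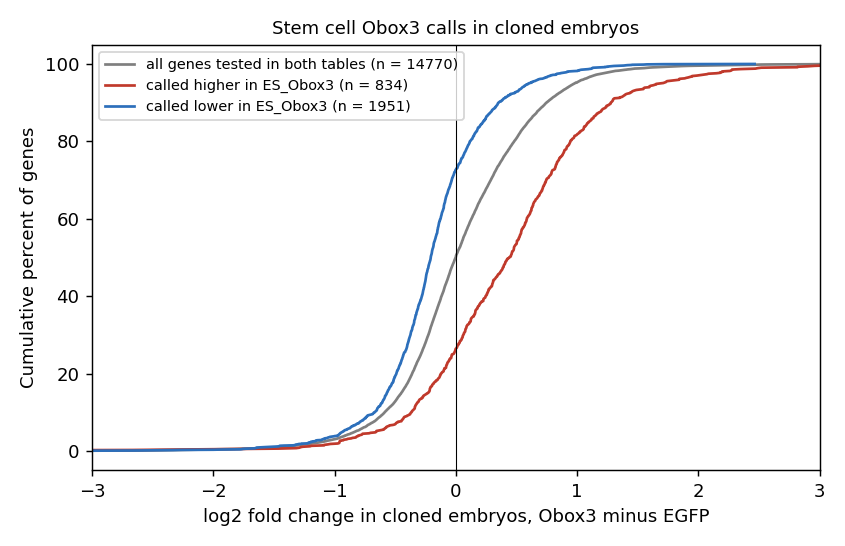
Cumulative percent of genes against the log2 fold change in cloned embryos (Obox3 minus EGFP mRNA), for all 14770 genes tested in both tables (grey), the 834 called higher in ES_Obox3 (red) and the 1951 called lower there (blue). The axis is drawn from -3 to 3. The red curve is shifted to the right (median 0.44) and the blue curve to the left (median -0.21).

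In the promoter windows shown at the start, the letters TAATCC on either strand were looked for in every gene with a window. Of the 20 genes that rose, 11 had a window and 1 of these (9.09%), Pramel4, held a match. Among all genes tested 754 of 10201 (7.39%) held one, as did 7.06% of all windows of this length. Among the genes called higher in ES_Obox3, 60 of 437 (13.7%) did. None of the genes that fell had a window. With 11 genes, the share in clones is near that of all genes and does not separate the sets.

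How many genes are called depends on the scaling and the filter. Besides the rescaling, raising the filter from 1 to 5 TPM in at least 2 libraries gave 245 higher and 28 lower. Without a filter 0 were called in either direction, with 3812 genes at an unadjusted p under 0.05, as in the fit on the 4 cloned libraries alone, with 3297. In each setting tried, every called gene that was still tested kept its direction. As the libraries of these genes did not overlap, leaving out a library or changing the pseudocount, filter or moderation could not reverse them.

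**Figure D5:**
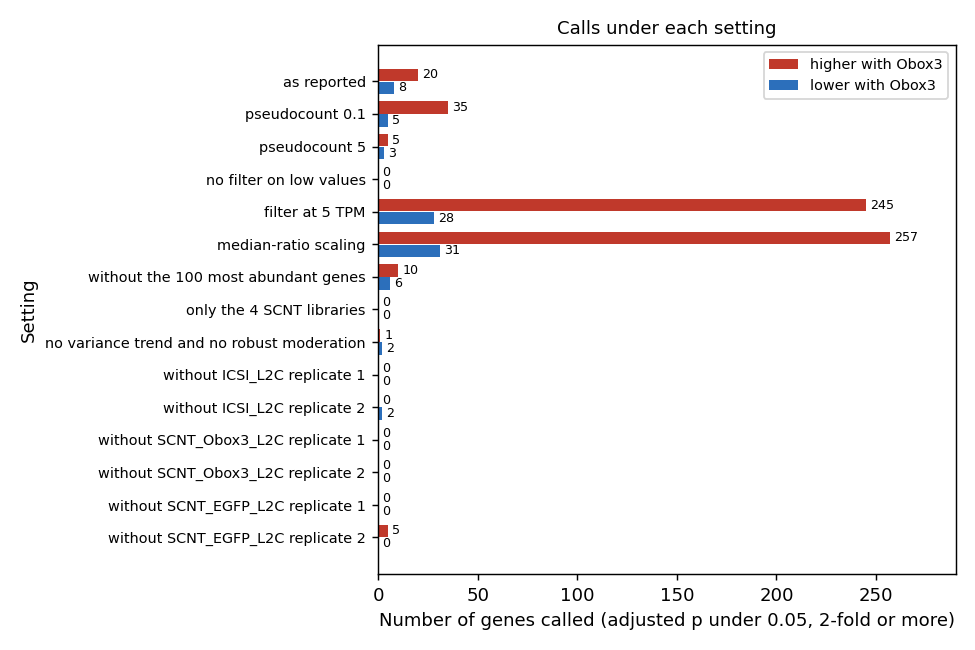
Number of genes called higher (red) and lower (blue) with Obox3 mRNA, as reported and under 14 other settings, on a linear axis from 0. The fit with a replicate block, which gave 0 and 0, is not drawn. The reported setting gives 20 and 8, rescaling and the 5 TPM filter give 257 and 245 higher genes, and most settings that leave out a library give 0.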

How the data were processed

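Total RNA of whole lysates was sequenced after a SMART-seq stranded kit, per the labels' protocols. The authors deposited 1 table of TPM (transcript abundance) for embryos and 1 for ES cells, per the file headers, with columns that add up to 1000000. Tools named by the submitters' processing notes are Trim Galore, HISAT2 and featureCounts 1.6.5, with build mm10. Annotation, strand setting and the handling of reads with several matches were not given in the sources used here, so genes with near copies (Obox, Zscan4, Trim43, MHC class I) and microRNAs inside other genes are uncertain in level.

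Groups came from the labels, and columns were matched by name. The second ES_Obox3 column carries a number that the labels do not have and was used as a member of its group only. log2(TPM + 1) was fitted with limma 3.58.1 (R 4.3.3, statmod 1.5.0; variance trend, robust, Benjamini-Hochberg) over all 6 embryo libraries, which share 1 estimate of the spread (3 residual and 3.48 prior degrees of freedom), for genes at 1 TPM or more in at least 2 libraries. Fold changes on this scale understate low genes. The ES table was fitted apart over 10 libraries of 5 groups. A call is an adjusted p under 0.05 with a log2 fold change of at least 1 in size. The script was tested on simulated data.

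Named genes were Obox genes, the called genes with the largest changes (a mean of at least 5 TPM, up to 12 protein-coding and 3 other genes in each direction), called list members and a fixed set of stage genes. The members and the 34 lists were chosen with earlier results of these data known. Alternatives covered the pseudocount, filter, scaling, libraries fitted, moderation and replicate block. Sequences are RefSeq's on GRCm38.p6, matched by symbol. Of 55364 genes 39080 had 1 RefSeq entry. The depth of the libraries is unknown.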

Additional observations from a re-analysis of the deposited data

Results flagged for a closer look

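For 3 called genes, every Obox3 library lay on one side of its control in cloned embryos and on the opposite side in ES cells. The difference between the settings was not tested, since the tables were normalised separately. The values are differences on the log2(TPM + 1) scale, and where a group is listed at 0 they depend on the pseudocount. Foxi3 had 2.80 in clones, where the EGFP libraries were listed at 0, and -1.07 in ES cells, where it did not pass limma's test (adjusted p = 0.125). Fgf4 had 2.39 in clones and -0.76 in ES cells, where its adjusted p by limma was 0.0117 with a change under the fold required for a call. Its ES levels were 72.3 and 65.8 TPM with the empty plasmid and 43.9 and 37.3 TPM with Obox3. The short gene Gm25406 had -4.03 in clones, where the Obox3 libraries were listed at 0, and 2.61 in ES cells, where the empty-plasmid libraries were listed at 0 and limma called it higher (adjusted p = 0.0018). It was the 1 gene of the 3 that was called in opposite directions.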

How the results depend on the processing

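The reported 20 higher genes, 8 lower genes and 9 genes higher in both tables were recomputed under 15 other settings, and no setting kept all 3 counts. With a pseudocount of 0.1 they were 35, 5 and 15, and with 5 they were 5, 3 and 2. Without the filter they were 0, 0 and 0, and with the 5 TPM filter 245, 28 and 59. Median-ratio scaling gave 257, 31 and 98, and leaving out the 100 most abundant genes 10, 6 and 5. The 4 cloned libraries alone gave 0, 0 and 0, and the fit without variance trend and robust moderation 1, 2 and 0. Leaving out 1 embryo library gave 0 to 5 higher, 0 to 2 lower and 0 to 4 in both, with 5 higher only without SCNT_EGFP_L2C replicate 2 and 2 lower only without ICSI_L2C replicate 2. Genes called after leaving out 1 library were mostly not those of the reported setting. The replicate block gave 0, 0 and 0 (smallest limma adjusted p 0.0808, 3687 genes at an unadjusted p under 0.05). The labels tie nothing to the replicate numbers, and same-numbered deviations correlated at 0.07, 0.05 and 0.01 across genes. With 2 libraries per group, whether same-numbered samples shared a batch cannot be told. No called gene that was still tested reversed in any setting, which for most settings follows from libraries that did not overlap. The cause of the moves in the counts was not tested.

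Some uncalled genes changed sign. Without the 100 most abundant genes Obox3-ps7 was -0.00563 and Obox7 -0.15 on the log2 scale. When 1 library was left out, the log2 fold change ran from -0.15 to 0.32 for Duxf3, from -0.41 to 0.31 for Obox1, from -0.60 to 0.16 for Obox2, from -0.43 to 0.27 for Obox5, from -0.39 to 0.39 for Obox7 and from -0.17 to 0.36 for Obox3-ps7. It ran from -0.026 to 0.65 for Zfp352, from -0.18 to 0.41 for Btg4, from -1.65 to 0.45 for Xist and from -0.0074 to 0.56 for Zp3. The cause was not tested. Each group has 2 libraries, and by the step of short genes 1 TPM of a 1-kb gene rests on 5.06 to 13.9 reads, which limits the precision of low genes.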
